A study of Homo sapiens with 68 samples.

Results

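The peaks described here lie in the major histone gene cluster of chromosome 6, in 2 windows of hg19, chr6:26017000-26286000 and chr6:27775000-27870000. Every peak of every list that lay within a window was taken, by its strand and the gene ID in its name, which gave 1780 peaks of the 15800601 listed in the 68 libraries (0.0113%). They carried 28 Ensembl gene IDs, called units here and numbered 1 to 28 along the chromosome. Units 1 to 18 lay in the first window and units 19 to 28 in the second, with 14 on each strand. The first window held 1385 of the peaks and the second 395. The lists hold no gene symbols and no genome sequence was used, so the units are given by number, strand and hg19 start and not by histone type.

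Replication-dependent histone genes are short and have no introns, and their mRNAs end in a conserved stem-loop in place of a poly(A) tail. The transcripts are made in large amounts during S phase, when new chromatin is assembled. Most of these genes sit together on chromosome 6, where several encode nearly identical mRNAs. The 4 proteins that were immunoprecipitated are best known from pre-mRNA that is spliced. hnRNPA1 and hnRNPI, the latter also known as PTBP1, are often splicing repressors, hnRNPc packages nascent RNA through uridine tracts, and RBFOX2 regulates alternative exons. Transcripts without introns therefore lack the splice sites at which these proteins are usually studied.

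The libraries were made with TLC-CLIP, in which cells are irradiated to crosslink protein to RNA, the protein is immunoprecipitated after limited RNase digestion, and the attached RNA is sequenced. All came from HEK293T, a line derived from human embryonic kidney, with 2 libraries in each of 34 groups; nothing states that the replicates were separate cultures, so p-values measure the spread between these libraries, which may be technical. The principal groups were made from 50000 cells at low RNase (0.005 U) for each of hnRNPA1, hnRNPc, hnRNPI and RBFOX2 (its antibody is labelled RBM9). They differed by whether complexes were size-selected by PAGE, whether PAGE was omitted, whether the exonuclease RecJ was then added to remove adapter, and whether UV was omitted, with or without PAGE. Further groups were hnRNPA1 and hnRNPc at medium RNase (0.025 U), hnRNPc without PAGE at 5000 and 500 cells with and without RecJ, and hnRNPc and RBFOX2 with PAGE from 10000 cells (0.001 U RNase) and 1000 cells (0.0001 U). The 4 background groups used the hnRNPc antibody on 10000 cells and gel regions of 50 to 75, 75 to 100, 100 to 150 and 150 to 250 kDa. The titles put 5000 and 500 cells in groups whose cell-number label reads 50000, and the omission of UV is given by titles and the series description, whereas the protocol text describes irradiation for all. The libraries without UV carry accessions next to those of the 10000-cell, 1000-cell and background libraries, apart from the principal crosslinked ones. Whether this marks a batch is not stated. In both comparisons of UV with no UV below, the accession block and the missing UV step cannot be told apart for any of the 4 proteins. Of the proteins, only hnRNPc and RBFOX2 have crosslinked libraries in the later block. Those were made with PAGE and at other cell numbers and RNase amounts. The identity of the cell line was not checked on marker genes.

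Lists ranged from 303 to 523402 peaks, and the number of sequenced reads behind them is unknown. Members were present in 59 libraries, with up to 60 in a library. The 9 libraries without any were the 8 background libraries, whose lists hold 303 to 6716 peaks, and hnRNPc with PAGE replicate 1, whose list holds 3268 peaks. That last library stands apart in every comparison with PAGE below. Its log2 share of 3.94 is set by the 0.5 peak added to every library, although it lists 0 members. That value exceeds the 3.18 of its replicate, which lists 19, and the 3.92 of RBFOX2 with PAGE replicate 1. Values without it are given beside several results that rest on it. The other libraries of the principal groups listed from 18690 to 523402 peaks.

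The member peaks were 1 to 398 nt wide (median 62 nt) and carried 4 to 1222 reads each (median 16), where reads are the last number of the peak name, whose meaning is not stated. Merged across libraries they formed 101 sites. Of these, 40 were seen in 1 library only, 27 were seen with all 4 proteins, and the most widely listed site appeared in 58 libraries. In 25 of the units the peaks spanned 65 to 2740 nt (median 391 nt), about the length of a histone mRNA, whereas 3 units spanned 12258 nt (unit 9), 9481 nt (unit 11) and 12838 nt (unit 24). The ends of a unit are the outermost edges of its listed peaks over the libraries, not annotated transcript ends. Positions within units below are counted from these ends. The units with most peaks were unit 10 on the plus strand at 26.157 Mb (ENSG00000168298.4, 179 peaks in 57 libraries), unit 11 on the plus strand at 26.158 Mb (162 peaks), unit 9 on the plus strand at 26.124 Mb (137 peaks), unit 6 on the minus strand at 26.056 Mb (122 peaks) and unit 18 on the minus strand at 26.285 Mb (ENSG00000158406.2, 121 peaks in 58 libraries). The fewest were in unit 23 (6 peaks) and unit 22 (7 peaks), both in the second window. Every unit was listed with RBFOX2 when PAGE was omitted. Overlaps limit 2 pairs of units: all 33 peaks of unit 14 overlapped a peak of unit 13 (minus strand, 26.198 Mb, ENSG00000197409.6) in the same library, and 28 of the 40 peaks of unit 27 overlapped one of unit 26. How reads that fit several near-identical histone genes were placed is not given in the sources used here, so the split of reads among paralogs is uncertain.

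RBFOX2 libraries devoted the largest part of their lists to the histone windows among the crosslinked libraries. Without PAGE, the windows held 33.0 and 31.6 peaks per 100000 listed peaks with RBFOX2. The values were 6.21 and 4.97 with hnRNPA1, 6.80 and 8.05 with hnRNPc, and 8.21 and 5.26 with hnRNPI. Both RBFOX2 libraries were thus above all 6 others, while the ranges of the 3 hnRNPs lay close together. RBFOX2 lists were also the shortest without PAGE, at 157375 and 161434 peaks against 341973 to 523402 with the hnRNPs. In number, the windows held 52 and 51 peaks with RBFOX2 and 31 and 26 with hnRNPA1. It was 30 and 38 with hnRNPc and 29 and 18 with hnRNPI. The part of list length in the shares was not tested. With PAGE the shares were 15.0 and 18.7 for RBFOX2, 2.91 and 2.79 for hnRNPA1, 1.28 and 3.73 for hnRNPI, and 0 and 8.84 for hnRNPc, and RBFOX2 was again above every other library. With RecJ they were 32.3 and 32.4 for RBFOX2, and from 4.18 to 7.38 in the 6 hnRNP libraries.

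Over the 3 protocols (24 libraries, 6 for each protein), the mean log2 share of hnRNPA1 was 2.53 below that of RBFOX2, a difference of -2.53. The corresponding difference from RBFOX2 was -2.58 for hnRNPI and -1.63 for hnRNPc. In two-sided exact permutation tests within protocols, adjusted over the 6 protein pairs, p was 0.0185 for hnRNPA1, 0.0185 for hnRNPI and 0.0278 for hnRNPc, each with the same sign in 3 of 3 protocols. hnRNPA1 lay below hnRNPc by 0.90 (log2 difference -0.90, exact adjusted p = 0.0185, 3 of 3 protocols), a call lost in the second window alone (-1.24, unadjusted exact p = 0.213). That difference was -0.41 without PAGE and -0.29 with RecJ but -1.999 with PAGE, or -1.62 without the library that lists no members, and counted in reads in place of peaks it was 0.05 (exact p = 0.796). The value in reads includes that library. In reads per 100000 listed reads, hnRNPA1 held 2.95 and 2.64 with PAGE, and hnRNPc 0 and 7.37. hnRNPc and hnRNPI differed by 0.95 (exact p = 0.0648, adjusted 0.0778), and hnRNPA1 and hnRNPI by 0.05 (exact adjusted p = 0.907), so neither pair passed the threshold. Both pairs passed unadjusted tests under other settings. Counted in reads, hnRNPA1 exceeded hnRNPI by 1.26 (exact p = 0.0185). hnRNPc exceeded hnRNPI by 1.97 among peaks with p below 1e-05 (exact p = 0.00926), by 1.23 in units of at most 5000 nt (exact p = 0.0185) and by 1.13 in the first window (exact p = 0.0370). These hnRNPc differences include the library without members. With PAGE, the main difference of 2.31 was 1.94 without it. The hnRNPc and hnRNPI difference reached an unadjusted exact p of 0.0278 without hnRNPI without PAGE replicate 1 and 0.0370 without hnRNPI with RecJ replicate 1 (1.05 in both). The sign of the hnRNPA1 and hnRNPI difference turned when any of 4 libraries was left out.

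**Figure D1:**
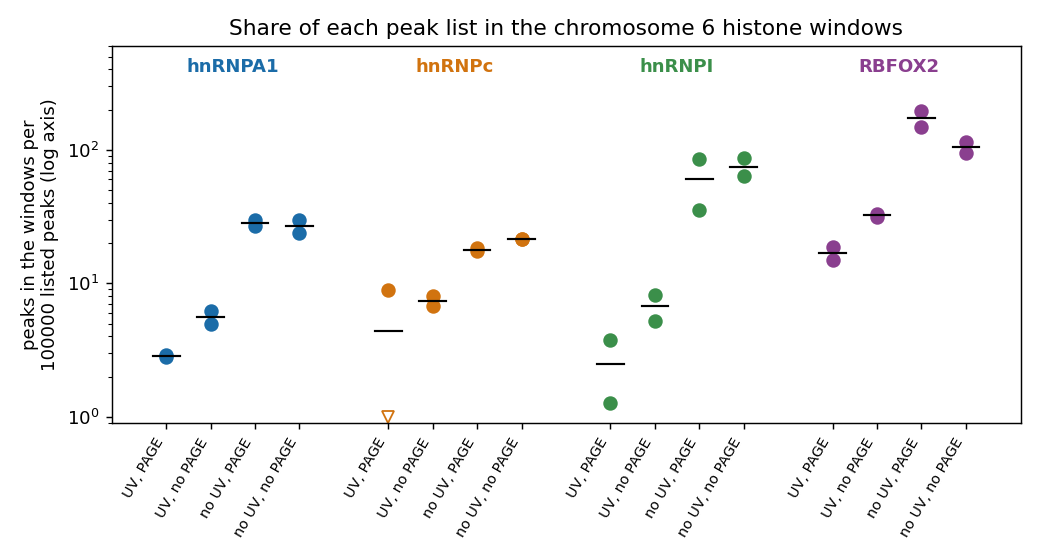
Peaks in the histone windows per 100000 listed peaks (log axis) for each protein by protocol; each point is 1 library, the bar is the mean of 2, and the open triangle marks the hnRNPc library with 0 members, which has no place on a log axis. RBFOX2 libraries lie highest under each protocol, and every library without UV lies above the crosslinked libraries of its protein with the same gel step.

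The same comparison by unit used RPM, the reads in listed peaks of a gene ID for each 1000000 reads in listed peaks of the library. It was log2-transformed after adding 1 and fitted in limma over all 17522 gene IDs listed in at least 4 of the 24 libraries. Fold changes on this scale understate the change of low units. Of the 25 histone units tested, 22 were higher with RBFOX2 than with the mean of the other 3 proteins and 0 were lower (adjusted p below 0.05). Over all gene IDs, 24.3% were higher and 43.1% lower. The median difference was 1.48 over the histone units and -0.48 over all gene IDs. Centring libraries on their median over shared gene IDs moved these medians to 2.35 and -0.11. Units listed only where they are high pass the filter through that group and had to differ, so the count is a description. The same limit applies to the counts of called units in every fit below.

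Unit 10 was the histone unit with most reads in 7 of the 8 RBFOX2 lists of the principal groups without RecJ, and in RBFOX2 with PAGE replicate 1 it was unit 6 (124 reads against 98). Without PAGE it had 60.2 and 51.6 RPM with RBFOX2 (550 and 501 reads), against 11.5 and 8.2 with hnRNPA1, 6.3 and 6.3 with hnRNPc and 3.4 and 2.8 with hnRNPI. Both RBFOX2 libraries exceeded the other 6 by a wide margin. With PAGE it had 14.5 and 24.5 with RBFOX2 and at most 6.0 in the other libraries. The RBFOX2 difference was 2.96 ± 0.32 (SE, limma adjusted p = 2.8e-08). In the 2 RBFOX2 libraries without PAGE this single unit took 29.8% and 25.8% of all reads in the windows. Its leading RBFOX2 peak, chr6:26156847-26156923 on the plus strand, held 131 and 140 reads. That peak was overlapped in 35 libraries: 7 of hnRNPA1, 12 of hnRNPc, 4 of hnRNPI and 12 of RBFOX2. The leading unit 10 peak of hnRNPA1 and hnRNPI lay further along the transcript, at chr6:26157133-26157203 with 38 and 67 reads for hnRNPA1 and at chr6:26157132-26157189 with 18 and 13 reads for hnRNPI.

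Other units rose with RBFOX2 as well, in both windows. Unit 21 (plus strand, 27.778 Mb) had 5.9 and 10.5 RPM with RBFOX2 without PAGE and at most 1.3 in any hnRNP library without PAGE, a difference of 2.69 ± 0.23 (limma adjusted p = 8.15e-10). Unit 6 had 21.6 and 23.3 with RBFOX2, and its difference was 2.55 ± 0.38 (limma adjusted p = 4.16e-06). Unit 4 (minus strand, 26.032 Mb) had 8.9 and 9.8 with RBFOX2 and 0 to 3.9 in the other 6. Its leading RBFOX2 peak, chr6:26032061-26032164 with 81 and 95 reads, overlapped a peak in 14 libraries of hnRNPc and in none of hnRNPA1. Units 7, 8, 16, 20, 25 and 28 were also among the 10 units with the smallest p, with differences from 1.03 (unit 25) to 2.20 (unit 7). The units that did not pass were 12, 18 and 24.

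**Figure D2:**
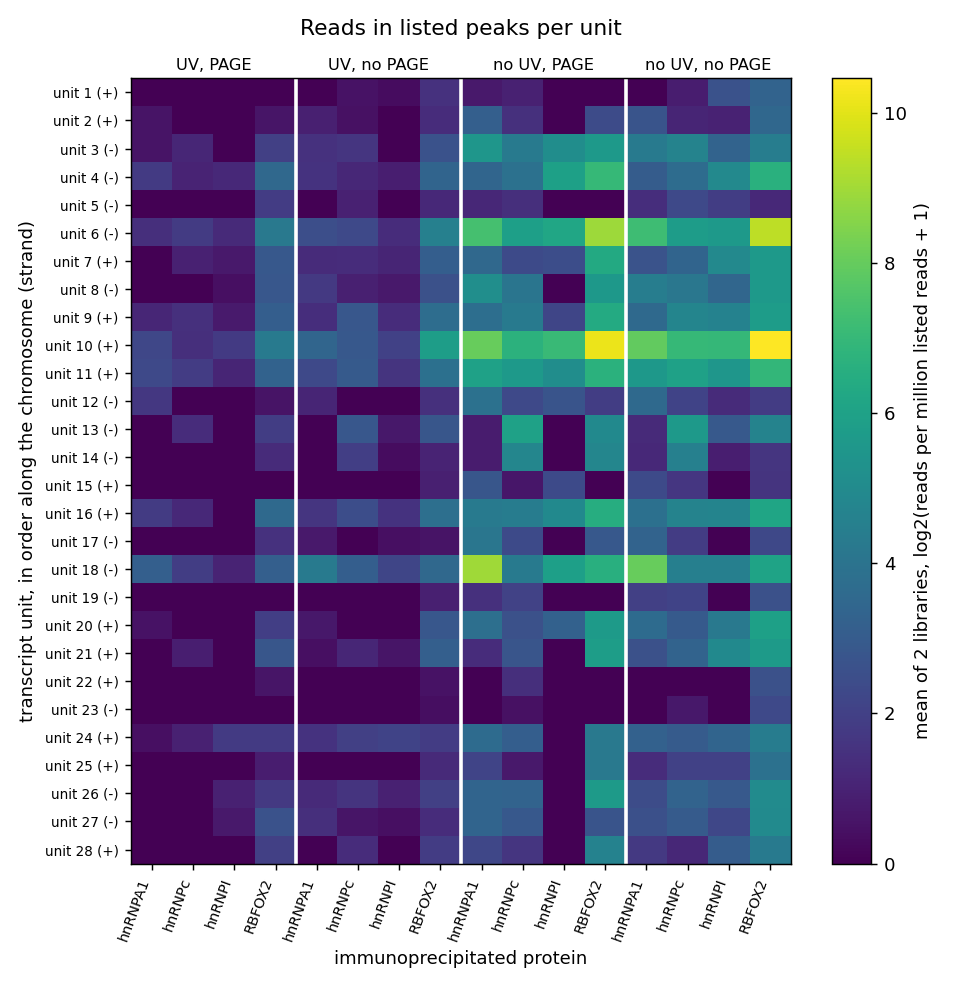
Reads in listed peaks per unit, as the mean of 2 libraries of log2(RPM + 1), by protein (columns) within 4 protocols (column blocks) and by unit in chromosome order (rows). Unit 10 in RBFOX2 libraries and unit 18 in hnRNPA1 libraries stand out, and the blocks without UV are higher over most rows.

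The 3 hnRNPs showed few units above the other proteins. For hnRNPA1, 2 of 25 units were higher and 7 lower, where 26.2% of all gene IDs were higher and 12.6% lower, and the median difference was -0.36 over the units and 0.47 over all gene IDs. For hnRNPI, 1 was higher and 17 lower (34.3% and 26.7% of all gene IDs), or 10 lower counted in peaks, with medians of -0.86 and 0.25. For hnRNPc, 1 was higher and 5 lower (12% and 28.6% of all gene IDs), with medians of -0.39 and -0.35, so the units lay near the rest of the hnRNPc lists. Centring on the median gave medians over the units and over all gene IDs of -0.63 and 0.15 for hnRNPA1, -1.06 and 0.07 for hnRNPI, and -0.59 and -0.55 for hnRNPc, with 11 units lower for hnRNPA1 and 11 for hnRNPc. Leaving out hnRNPA1 without PAGE replicate 2 took the units lower with hnRNPA1 to 4. Leaving out either hnRNPc library without PAGE or either with RecJ took those lower with hnRNPc to 3, and leaving out hnRNPc with PAGE replicate 1 took those higher to 2.

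The units called higher differed among the hnRNPs. With hnRNPA1 the one with most reads was unit 18, which had 17.95 and 20.4 RPM without PAGE (206 and 252 reads), against 7.8 and 7.8 with hnRNPc, 3.8 and 3.3 with hnRNPI and 11.3 and 9.7 with RBFOX2. The hnRNPA1 libraries lay above the others without overlap, and unit 18 took 30.6% and 36.0% of their reads in the windows. With PAGE the hnRNPA1 values of 7.7 and 8.3 lay within the range of the other libraries. The difference over the 24 libraries was 1.33 ± 0.37 (limma adjusted p = 0.00656). It rested on the reads of few peaks: counted in peaks in place of reads it was -1.23, past the threshold in the other direction (limma adjusted p = 0.0429), and with a pseudocount of 0.1 the adjusted p was 0.0696. A single peak, chr6:26285633-26285745 on the minus strand, 19 nt from the 5′ end of the unit, held all 206 reads of replicate 1. A peak overlapped it in 57 of the 59 libraries with members, with all 4 proteins. Unit 12 was the other unit higher with hnRNPA1 (0.99 ± 0.23, limma adjusted p = 0.00151), a call lost after centring (0.63, limma adjusted p = 0.110) and counted in peaks (0.89, limma adjusted p = 0.111). Units 21 (-1.34 ± 0.23) and 13 (-1.50 ± 0.26) were the lowest.

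With hnRNPc the unit above the other proteins was unit 13. Without PAGE it had 6.5 and 5.9 RPM with hnRNPc, 4.8 and 7.5 with RBFOX2, 0.6 and 0.6 with hnRNPI, and no listed peak with hnRNPA1. hnRNPc and RBFOX2 overlapped here, and both lay above the other proteins. The difference for hnRNPc was 1.19 ± 0.26 (limma adjusted p = 0.000823), with an adjusted p of 0.0536 after centring on the median and 0.140 when peaks were counted in place of reads. Its leading peak, chr6:26199210-26199387 on the minus strand with 35 and 28 reads, was overlapped in 20 hnRNPc libraries, 12 of RBFOX2, 3 of hnRNPA1 and 3 of hnRNPI. The unit lowest with hnRNPc was unit 20 (-1.11 ± 0.20, limma adjusted p = 6.84e-05).

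With hnRNPI it was unit 24, on the plus strand at 27.806 Mb (ENSG00000233822.2), which had 3.7 and 2.9 RPM without PAGE. The other libraries without PAGE had 1.4 to 4.2, so the proteins overlapped there. The difference of 0.89 ± 0.30 (limma adjusted p = 0.0127) was not past the threshold after centring (adjusted p = 0.0675), with a pseudocount of 0.1 (0.0509) or counted in peaks (0.265). It also differed in position: its leading hnRNPI peak, chr6:27809609-27809722 with 15 and 13 reads, lay 3257 nt from the 5′ end of the unit and was overlapped in 5 libraries, all of hnRNPI. The units lowest with hnRNPI were units 10 (-1.80 ± 0.32) and 18 (-1.73 ± 0.37).

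**Figure D3:**
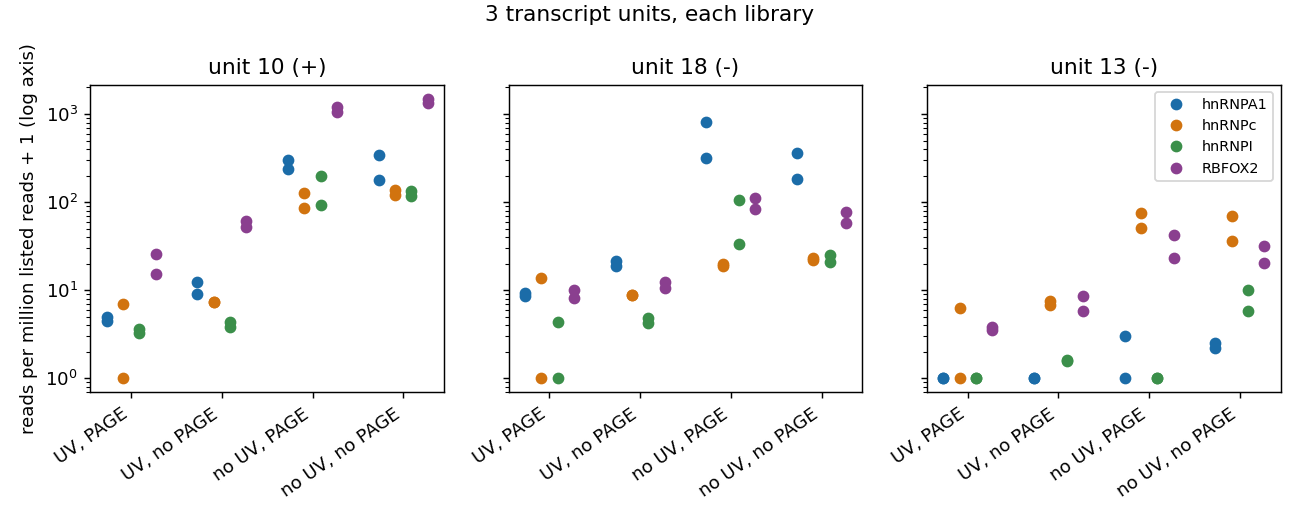
RPM + 1 (log axis, reads in listed peaks scaled to 1000000) in each library for units 10, 18 and 13 under 4 protocols; colours give the protein and points at 1 are libraries that list no peak of the unit. RBFOX2 is highest in unit 10 under all 4 protocols, hnRNPA1 is highest in unit 18 except with UV and PAGE, and hnRNPc and RBFOX2 lie above hnRNPA1 and hnRNPI in unit 13 except in the hnRNPc library without members.

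Omitting PAGE gave more of the list to the histone windows for 3 proteins. The log2 share was higher by 0.94 for hnRNPA1, 1.50 for hnRNPI and 0.94 for RBFOX2, and lower by 0.65 (-0.65) for hnRNPc, where leaving out the library without members gave -0.27. The mean of 0.68 did not pass the test (16 libraries, two-sided exact permutation test within proteins, p = 0.0540, adjusted over 8 protocol tests 0.127). Without hnRNPc with PAGE replicate 1 it was 0.78 (exact p = 0.0108), and without it and with no peak added 0.81 (exact p = 0.0108). It was 0.71 without hnRNPc without PAGE replicate 1 and 0.86 without hnRNPI with PAGE replicate 2 (exact p = 0.0448 in both), and 0.90 counted in reads (exact p = 0.0247). The 0.90 includes the library without members. In reads per 100000 listed reads, hnRNPc held 0 and 7.37 with PAGE, and 5.85 and 6.54 without PAGE. Set against the peaks of the stretch between the windows, the mean was 0.42 (exact p = 0.207, adjusted 0.276).

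More units were listed without PAGE. The 8 crosslinked libraries with PAGE listed 24 units, 12 with hnRNPA1, 12 with hnRNPc, 11 with hnRNPI and 24 with RBFOX2. Those without PAGE listed all 28 units, 18, 20, 17 and 28 by protein. The 12 with hnRNPc came from replicate 2 alone, since replicate 1 lists no members. Of all gene IDs, RBFOX2 libraries listed 15114 and 14302 with PAGE and 13296 and 13380 without. For hnRNPA1 it was 14532 and 14528, then 15047 and 15104. hnRNPI had 13743 and 14098, then 14231 and 14105, and hnRNPc 1395 and 11411, then 14005 and 14269. In limma over 16541 gene IDs, 0 of 23 units tested passed in either direction, and 0.29% and 0.0363% of all gene IDs passed as higher and lower. The median difference was 0.52 over the units and 0.08 over all gene IDs, or 0.81 and 0.33 after centring. Leaving out hnRNPc with PAGE replicate 1 gave 1 unit higher. Unit 10 had the smallest p (1.10 ± 0.39, limma adjusted p = 0.402). Within RBFOX2, both libraries without PAGE exceeded both with PAGE in 13 of 28 listed units and lay below in 2, where 5.08% of all gene IDs were above and 70.6% below. Within hnRNPA1 it was 10 above and 2 below of 18, beside 9.42% and 50.5%. For hnRNPI it was 5 above and 0 below of 17 (17.2% and 34.4% of all gene IDs), and for hnRNPc 7 above and 0 below of 20 (42.9% and 4.23%). The hnRNPc counts include the library without members, which is at 0 for each unit, so no unit could lie below.

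RecJ treatment left the windows' share near its level without RecJ. The log2 difference was -0.09 over the 6 pairs of groups (24 libraries, exact permutation test, p = 0.336, adjusted 0.436). It was -0.01 for hnRNPA1, 0.00 for RBFOX2, -0.13 for hnRNPc and -0.33 for hnRNPI at 50000 cells. In limma 0 of 25 units passed, as did 0% of all gene IDs.

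Libraries made without UV gave the histone windows a far larger part of their lists. With PAGE the shares without UV were 26.9 and 30.0 peaks per 100000 listed in hnRNPA1 lists, 17.4 and 18.4 in those of hnRNPc, 85.6 and 35.3 in those of hnRNPI, and 149 and 196 in those of RBFOX2. Each lay above both crosslinked libraries of its protein. Without PAGE they were 114 and 94.7 with RBFOX2, 86.2 and 63.3 with hnRNPI, 29.9 and 23.95 with hnRNPA1 and 21.3 and 21.5 with hnRNPc, again without overlap. The RBFOX2 values were the highest under each protocol and those of hnRNPc the lowest. The lists without UV held 18690 to 299616 peaks, against 157375 to 523402 in the crosslinked libraries without PAGE. With the same gel step they were shorter than both crosslinked lists of their protein, except for hnRNPc with PAGE, where they held 299616 and 299307 peaks against 3268 and 214849. In number with PAGE, the windows held 45 and 45 peaks without UV against 39 and 39 crosslinked for RBFOX2. For hnRNPI it was 16 and 13 against 4 and 11. hnRNPA1 had 44 and 44 against 15 and 14, and hnRNPc 52 and 55 against 0 and 19. Without PAGE, RBFOX2 had 60 and 58 against 52 and 51, and hnRNPI 38 and 50 against 29 and 18. hnRNPA1 had 54 and 47 against 31 and 26, and hnRNPc 40 and 60 against 30 and 38. The part of list length in the shares was not tested.

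The log2 share was higher without UV by 2.96 with PAGE and by 2.24 without PAGE. Both tests gave the smallest exact p their 16 libraries allow (0.00154, two-sided, adjusted over 8 tests 0.00617), with the same direction in 4 of 4 proteins. By protein the differences with PAGE were 4.59 for hnRNPI, 3.35 for RBFOX2, 3.28 for hnRNPA1 and 0.61 for hnRNPc (0.99 without the library that lists no members). Without PAGE they were 3.48, 1.68, 2.26 and 1.53 in the same order, and whether the proteins differ was not tested. The stretch between the windows also took more of the lists without UV with all 4 proteins, for example 45.8 and 48.3 per 100000 for hnRNPA1 with PAGE against 21.7 and 19.9 crosslinked. For hnRNPc it held 20.0 and 20.7 against 0 and 9.31 with PAGE, and 19.2 and 22.3 against 19.0 and 15.7 without. Relative to that stretch the windows were still higher by 1.88 with PAGE (exact adjusted p = 0.0185, 3 of 4 proteins, hnRNPc at -0.15) and by 1.61 without PAGE (exact adjusted p = 0.00617, 4 of 4 proteins). Against the 10000-cell libraries deposited beside them, the libraries without UV were higher by 0.72 for hnRNPc and by 2.99 for RBFOX2, although cell number and RNase also differ there.

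Among libraries made without PAGE, most histone units rose when UV was omitted as well. There, 26 of 27 units tested rose without UV and 0 fell, where 6.14% of all 15908 gene IDs rose and 33.6% fell. Units listed mainly without UV pass the filter through that group, so the counts here are a description. The median difference was 2.04 over the units and -0.54 over all gene IDs, or 2.34 and -0.32 after centring. The unit that did not pass was unit 23 (0.65, limma adjusted p = 0.0664), and unit 22 was not tested. With PAGE, 9 of 24 rose and 0 fell (0.95% and 1.02% of all gene IDs), with medians of 2.35 and -0.54 (2.56 and -0.35 after centring). Leaving out hnRNPc with PAGE replicate 1 gave 18 and leaving out hnRNPI without UV with PAGE replicate 2 gave 14, whereas a pseudocount of 0.1 gave 3 and peaks in place of reads gave 0.

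By libraries, both hnRNPA1 libraries without UV or PAGE exceeded both crosslinked ones in 25 of 25 listed units and lay below in 0, beside 28.6% of all gene IDs above and 43.5% below. For hnRNPc it was 23 above and 0 below of 27 (18% and 46.1% of all gene IDs), for hnRNPI 20 and 0 of 24 (17% and 60.7%), and for RBFOX2 23 and 0 of 28 (19.8% and 47.2%). With PAGE it was 20 above and 0 below of 26 listed units with hnRNPA1 (23.8% and 48.6% of all gene IDs), 23 and 0 of 28 with hnRNPc (33.3% and 5.04%), 7 and 1 of 16 with hnRNPI (10.6% and 48.3%), and 18 and 1 of 24 with RBFOX2 (7.02% and 64.6%). The hnRNPc count with PAGE includes the library without members, which is at 0 for each unit, so no unit could lie below. Nor could any unit that the crosslinked libraries of a protein did not list. Crosslinked without PAGE, 18 units were listed with hnRNPA1, 20 with hnRNPc, 17 with hnRNPI and 28 with RBFOX2. Without UV or PAGE these were 25, 27, 23 and 28. Of all gene IDs, the crosslinked libraries without PAGE listed 13296 to 15104 each, and those without UV or PAGE 7297 to 14516.

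Unit 10 changed most. Without UV and PAGE it had 1482 and 1344 RPM with RBFOX2 (2494 and 2815 reads), 340 and 179 with hnRNPA1, 136 and 121 with hnRNPc, and 117 and 134 with hnRNPI. All 8 libraries lay above all 8 crosslinked ones, the highest of which had 60.2. Its difference was 4.57 ± 0.25 without PAGE (limma adjusted p = 2.6e-08) and 5.56 ± 0.67 with PAGE (limma adjusted p = 5.93e-05). With RBFOX2 it held 48.1% and 47.3% of all reads in the windows without UV and PAGE. Unit 6 followed at 4.34 ± 0.32 without PAGE (limma adjusted p = 1.63e-06), with 710 and 655 RPM in RBFOX2 and 211 and 105 in hnRNPA1. Unit 11 rose by 3.33 ± 0.28 and unit 20 by 3.32 ± 0.33.

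**Figure D4:**
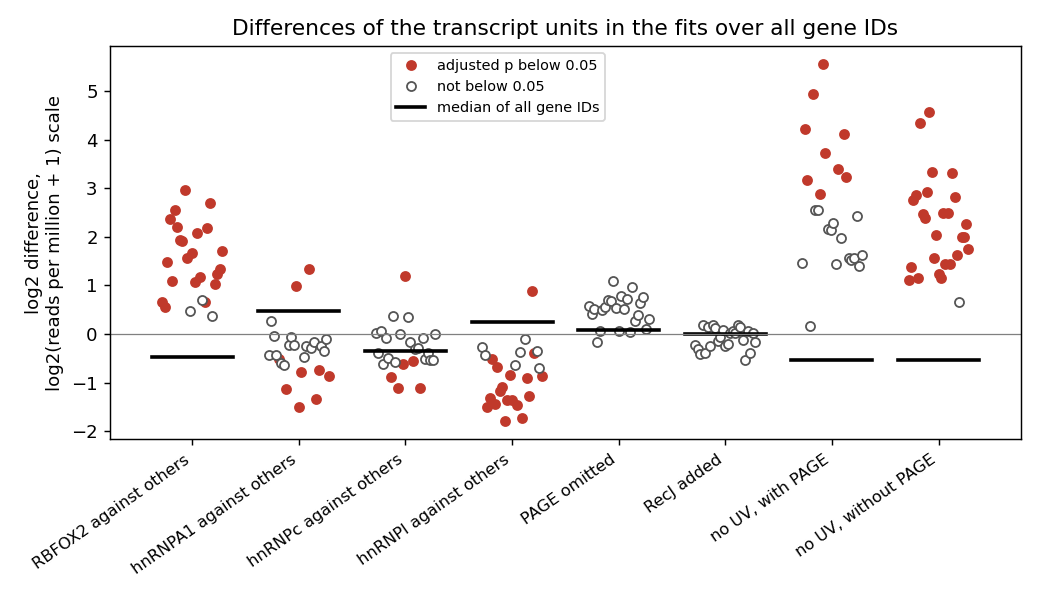
Log2 difference of each tested histone unit in the 8 fits over all gene IDs; filled points have an adjusted p below 0.05 and the black bar is the median of all gene IDs in that fit. Units lie mostly above the bar for RBFOX2 and for both comparisons without UV, and below it for hnRNPA1 and hnRNPI.

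Single units were compared between proteins in the libraries without UV as well, and some calls turned. A fit to those 16 libraries, chosen after seeing the data, gave 16 of 28 units higher with RBFOX2 and 0 lower, where 15.4% of all 14614 gene IDs were higher and 47.8% lower. Unit 10 was 3.01 ± 0.22 higher with RBFOX2 (limma adjusted p = 7.22e-08), unit 6 was 2.83 ± 0.40 higher and unit 4 was 2.66 ± 0.31 higher. For hnRNPA1, 2 units were higher and 4 lower (45.1% and 9.13% of all gene IDs). Leaving out any of 9 libraries took those higher to 1, and leaving out hnRNPA1 without UV or PAGE replicate 2 took those lower to 2. Unit 18 had 318 and 801 RPM with hnRNPA1 with PAGE and 364 and 183 without PAGE, and at most 110 in the other 12 libraries. Its difference was 3.19 ± 0.38 (limma adjusted p = 8.66e-06), and -1.86 when peaks were counted (limma adjusted p = 0.00575).

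For hnRNPc without UV, 2 units were higher, 13 and 14, and 4 lower (42% and 12.9% of all gene IDs). Unit 13 had 50.5 and 75.2 RPM with hnRNPc with PAGE and 35.4 and 67.9 without. RBFOX2 had 41.5 and 22.1 with PAGE and 19.6 and 30.6 without, and the highest value of the other 2 proteins was 9.0. The difference was 3.37 ± 0.55 (limma adjusted p = 0.000167), or 0.79 counted in peaks (limma adjusted p = 0.428). Unit 14, which shares its peaks with unit 13, was 3.13 ± 0.70 higher. For hnRNPI, 14 units were lower and 1 higher, where 51.1% and 11.8% of all gene IDs were, and the higher one was unit 4 (0.82, limma adjusted p = 0.0346). That call was lost when any of 5 libraries was left out. In the crosslinked fit unit 4 was lower with hnRNPI (-1.31 ± 0.37, limma adjusted p = 0.0043). Unit 24, the one called higher with hnRNPI when crosslinked, was lower without UV (-1.92 ± 0.56, limma adjusted p = 0.00849). Unit 12 was 1.71 ± 0.92 with hnRNPA1 without UV and did not pass (limma adjusted p = 0.128). Counted in peaks in place of reads, 4 units were higher and 2 lower with hnRNPI without UV, and units 10, 11 and 18 turned to 1.05, 1.10 and 1.11. That count gave 0 units higher with hnRNPA1, and 0 higher and 7 lower with hnRNPc. Whether the differences between proteins changed with UV was not tested.

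Peaks in the windows held more reads than the rest of the list in the libraries without UV. The median was 11 to 45 reads for each peak in the windows in the 16 libraries, against 6 to 10 for the other peaks of the same lists, higher in 16 of 16. In the crosslinked libraries without PAGE the medians were 25.5 and 28 with RBFOX2 against 11 and 11, but 7.5 to 14 against 11 to 12 with the hnRNPs. Over those 8 libraries the log2 difference was 0.22 (two-sided exact sign-flip permutation test, p = 0.430, adjusted over 3 tests 0.645), positive in 5 of 8. The sign-flip tests against the rest of the list count both replicates of a protein separately, although replicates resemble each other. Width differed by 2.31 nt (exact adjusted p = 0.645), or by 9.69 nt among peaks with p below 1e-05 (unadjusted exact p = 0.00781), and peaks for each cluster by 0.01 (exact adjusted p = 0.789). Median width in the windows was lower by 9.25 nt without UV with PAGE (difference -9.25, exact p = 0.0633, adjusted 0.127) and lower by 3.5 nt without PAGE (difference -3.5, exact adjusted p = 0.375), so neither passed; the library without members has no width. Among peaks with p below 1e-05 the differences were -22.5 nt with PAGE (unadjusted exact p = 0.00309) and -16.1 nt without (unadjusted exact p = 0.00926). With PAGE it was -13.75 nt in the first window and -10.1 nt with overlapping peaks merged (unadjusted exact p = 0.0108 and 0.0432). Without hnRNPI with PAGE replicate 2 the first was -13.4 nt and without RBFOX2 without UV with PAGE replicate 1 it was -10.9 nt (unadjusted exact p = 0.0278 and 0.0123).

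In the 3 long units, peaks far from the 5′ end were listed mostly in crosslinked libraries. In the 8 crosslinked libraries without PAGE, 53 peaks of units 9, 11 and 24 lay within 1000 nt of the unit's 5′ end and 22 lay beyond, in 6 libraries: those of hnRNPA1 (5 and 3), hnRNPc (2 and 2) and hnRNPI (7 and 3), and none of RBFOX2. With PAGE it was 27 and 9, in 5 libraries. Without UV with PAGE it was 54 and 0, and without UV or PAGE 70 and 2, both of the latter in hnRNPA1 libraries. The distant peaks were small, with 165 reads in all without PAGE and 9 without UV or PAGE. List length differed as well, in the direction given above, and its part in this was not tested. The lists do not show whether such peaks belong to an extended histone transcript or to another RNA of the region.

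**Figure D5:**
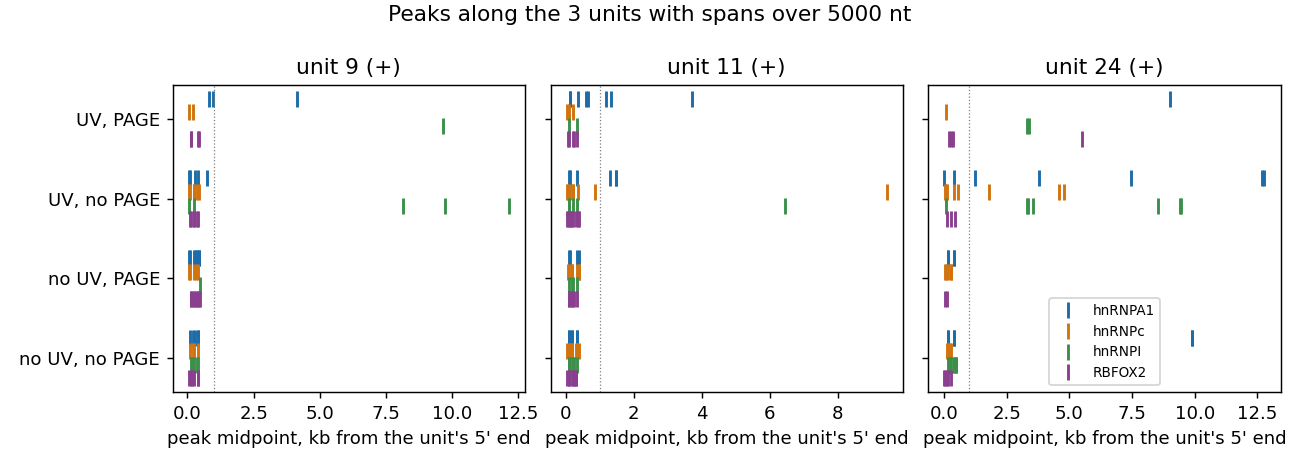
Midpoints of peaks in units 9, 11 and 24, in kb from the 5′ end of the unit, by protocol (rows) and protein (colours); the dotted line marks 1 kb. Beyond 1 kb lie 9 and 22 peaks in the crosslinked rows and 0 and 2 in the rows without UV.

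Within the 25 short units, reads were spread over the span of the listed peaks. In RBFOX2 libraries without PAGE, 43.1% of reads lay in peaks of the first of 3 equal parts from the 5′ end and 20.1% in the last part when crosslinked, and 23.6% and 41.7% without UV (means of 2 libraries). For hnRNPA1 the values were 56.8% and 33.1% crosslinked, and 45.6% and 39.8% without UV. For hnRNPc they were 54.1% and 29.3%, and 32.9% and 35.4%. For hnRNPI they were 36.6% and 47.3%, and 34.97% and 26.7%, so its last part was smaller without UV and that of the other proteins larger. With PAGE the first part of RBFOX2 held 59.7% crosslinked and 24.2% without UV. These shares follow the few units with most reads. By number of peaks without PAGE, the first part held 47.0% in RBFOX2, 48.8% in hnRNPA1, 51.9% in hnRNPc and 40.3% in hnRNPI crosslinked, and 41.4%, 41.6%, 42.5% and 47.9% without UV. None of these differences was tested.

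Proteins shared part of their sites. In crosslinked libraries without PAGE, 65.1% ± 14.6 (SD, n = 8 libraries) of the histone peaks were overlapped by a peak of the replicate, and 47.1% ± 7.67 by a peak of 1 library of another protein. With hnRNPI the order was the other way, 49.5% and 55.0% (means of 2 libraries). With PAGE the values were 36.6% ± 25.5 and 23.0% ± 7.83 (SD, n = 7 libraries that list members). The first includes a fixed 0 for hnRNPc replicate 2, whose replicate lists no members. The other libraries gave 46.7% and 50.0% for hnRNPA1, 25.0% and 9.09% for hnRNPI, and 61.5% and 64.1% for RBFOX2. As a partner of other proteins, the library without members could overlap nothing, which lowers the second value. Without UV or PAGE the overlap was 80.6% ± 5.67 with the replicate and 65.3% ± 3.41 with another protein. Of the crosslinked peaks, 74.8% ± 7.38 were overlapped in either of the 2 libraries of the same protein without UV or PAGE. Of the peaks without UV or PAGE, 64.6% ± 15.9 were overlapped in either of the 2 crosslinked ones. With PAGE these were 66.2% ± 18.5 (SD, n = 7 libraries) and 41.1% ± 18.2 (SD, n = 8 libraries). A hit in either of 2 libraries is easier to reach than a hit in 1, so these values cannot be set against those above. Moving peaks by 1000 nt left at most 1.90% in any of these comparisons and those with PAGE. The number of sites seen with all 4 proteins was 3 of 45 with UV and PAGE, 13 of 63 with UV and no PAGE, 11 of 47 without UV with PAGE and 21 of 47 without UV or PAGE. With UV and PAGE, hnRNPc could add to this count through replicate 2 alone.

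RNase and cell number groups are given as values, since 2 libraries against 2 cannot reach an exact p below 0.05. At medium RNase the shares were 0.82 and 1.22 for hnRNPA1, below 2.91 and 2.79 at low RNase (log2 difference -1.38). For hnRNPc they were 4.27 and 5.46, or 0.87 (-0.87) lower than the low RNase library that lists members. With PAGE from 10000 cells the shares were 10.6 and 10.9 for hnRNPc and 24.2 and 19.1 for RBFOX2, and from 1000 cells 13.1 and 10.1 and 28.4 and 19.3. The RBFOX2 values at each cell number again lay above those of hnRNPc. hnRNPc without PAGE gave 5.81 and 4.99 at 5000 cells and 5.73 and 5.32 at 500 cells, below the 6.80 and 8.05 at 50000 cells.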

How the data were processed

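The authors deposited 1 CLIPper peak list for each library, as the file names say. The submitters' processing notes name bcl2fastq, STAR 2.7.3a, UMI-tools 1.0.1 and hg19; the sources used here do not give parameters, the gene annotation or the treatment of reads with several matches. Each deposited line holds a position, a p-value whose adjustment is not stated, and a name that ends in a number read here as the count of reads over the peak, a reading no header states. The peaks in the windows had p-values up to 0.00736. Depth is unknown, so shares of each list were compared: log2((peaks in the windows + 0.5) / (listed peaks + 1) × 100000).

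Differences in share and width were tested with two-sided exact permutations within protein or protocol and adjusted by Benjamini-Hochberg over 6 protein pairs, 8 protocol tests, 3 tests within libraries and 4 tests against the stretch between the windows. Gene IDs listed in at least 4 libraries of a fit were tested with limma 3.58.1 in R 4.3.3 (trend, protein or protocol as covariate) on log2(RPM + 1), RPM being the reads in listed peaks of a gene ID for each 1000000 in the library's list, adjusted over all gene IDs. Python 3.11.15 and numpy 2.4.6 did the rest, and scripts were tested on simulated data. The members and lists were chosen with earlier results of these data known. Named units were, for each protein, the 3 with the highest lower-of-2 share without PAGE, up to 10 called units for each fit by p, and those spanning over 5000 nt; named peaks were the 3 best ranked in both replicates without PAGE. Pathway gene lists could not be applied because no table paired the gene IDs with symbols, and no sequence is printed. Replicate numbers did not pair samples.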

Additional observations from a re-analysis of the deposited data

Results flagged for a closer look

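For these differences every library of one group moved one way and every library of another the opposite way; none of the differences between groups was tested. When PAGE was omitted, the log2 share of the histone windows was higher for hnRNPA1 (0.94), hnRNPI (1.50) and RBFOX2 (0.94) and lower for hnRNPc (-0.65), gaps of 1.59, 2.15 and 1.59. The hnRNPc value rests on the library with PAGE that lists 0 members, and was -0.27 without it. When RecJ was added, the log2 share of hnRNPc without PAGE was higher at 5000 cells (0.26) and lower at 500 cells (-0.34), a gap of 0.60. When RecJ was added, the median width of histone peaks was 8 nt higher for hnRNPI and changed by -3.5 nt for hnRNPA1 and by -2.75 nt for RBFOX2, gaps of 11.5 nt and 10.75 nt.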

How the results depend on the processing

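Of 1097 alternative values of the main results, 984 kept their direction and side of the threshold (or, for values with no test, stayed within the spread of replicates), 1 lost the threshold, 18 gained it, 75 moved and 19 reversed. For single units, 2950 of 3229 kept both, 273 lost the threshold and 6 reversed. The causes were not tested. The rise of the share without UV and the RBFOX2 differences from each hnRNP kept direction and threshold under every alternative run; depth behind the lists is unknown, and lists differ in length.

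In the second window alone the hnRNPA1 and hnRNPc difference was -1.24 and no longer past the threshold (exact p = 0.213), and that of hnRNPA1 and hnRNPI -0.50. Counted in reads these were 0.054 and 1.26, and counted in clusters the latter was -0.017. The 0.054, like the hnRNPc and hnRNPI differences given next, includes the hnRNPc library without members. The 1.26 passed, as did hnRNPc over hnRNPI by 1.97 among peaks with p below 1e-05, by 1.13 in the first window and by 1.23 in units of at most 5000 nt. Omitting PAGE passed at 0.90 in reads, with the library without members included, and at 0.81 without hnRNPc with PAGE replicate 1 and with no added peak. RecJ gave 0.019 among peaks with p below 1e-05. For median width, omitting PAGE gave 6.06 nt in the second window. With p below 1e-05, RecJ gave -4.75 nt, no UV with PAGE -22.5 nt, no UV without PAGE -16.1 nt, and the windows against the rest of the list 9.69 nt, the last 3 past the threshold. No UV with PAGE also passed at -13.8 nt (-13.75) in the first window and -10.1 nt with overlapping peaks merged. In units of at most 5000 nt the width against the rest was -1.13 nt (-1.125) and peaks for each cluster -0.0013. The reads difference against the rest was -0.18 in the second window, and peaks for each cluster -0.051 with p below 1e-05.

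Requiring overlap of at least 50% of the peak lowered the percent shared with another protein to 35.4 (crosslinked without PAGE), 53.2 (no UV without PAGE) and 38.6 (no UV with PAGE), and that with the replicate to 70.2 (no UV without PAGE). With p below 1e-05, 89.4% of crosslinked peaks without PAGE were overlapped in either of the 2 libraries of the same protein without UV or PAGE. Moved by 1000 nt, the percent overlapped was 0.82 and 0.55 (crosslinked without PAGE, replicate and other protein), 1.90 and 1.03 (with PAGE), 0 and 0.042 (no UV without PAGE), 0 and 0 (no UV with PAGE), and between no UV and crosslinked 0.50, 0.42, 1.14 and 0.

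Medium minus low RNase was -1.72 in reads and -0.66 with p below 1e-05 for hnRNPA1, and 0.40 and -2.85 for hnRNPc. In reads, 10000 minus 50000 cells was 2.36 for hnRNPc and 1.27 for RBFOX2 (0.78 with p below 1e-05), 1000 minus 50000 cells 2.33 and 1.23. These hnRNPc values include the low RNase library at 50000 cells that lists no members. Its replicate held 7.37 reads in the windows per 100000 listed reads. Medium RNase gave 3.34 and 3.84, below that replicate. From 10000 cells the values were 13.9 and 14.1, and from 1000 cells 16.5 and 11.3, above it. Without PAGE hnRNPc at 5000 and 500 minus 50000 cells was -0.62 and -0.72 in reads, the latter -1.06 with p below 1e-05. No UV minus 10000 cells was 1.76 in reads and 0.92 with p below 1e-05 for hnRNPc, and 3.29 with p below 1e-05 for RBFOX2.

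Units called higher with hnRNPA1 numbered 1 after centring, 1 with a pseudocount of 0.1 and 0 counted in peaks, and lower 11 after centring. For hnRNPc it was 0 higher after centring or in peaks, and 11 lower after centring. For hnRNPI it was 0 higher in all 3, and 10 lower in peaks. No UV with PAGE gave 3 with a pseudocount of 0.1, 0 in peaks and 4 with the replicate block. In the libraries without UV, counting peaks gave 0 higher for hnRNPA1, 0 higher and 7 lower for hnRNPc, and 4 higher and 2 lower for hnRNPI, which had 0 higher with a pseudocount of 0.1. Counted in peaks, unit 18 was -1.23 with hnRNPA1, and without UV -1.86; with hnRNPI without UV, units 11, 18, 10 and 6 were 1.10, 1.11, 1.05 and 0.72. The replicate numbers did not pair libraries (correlations of deviations from -0.13 to 0.08), and the block moved no other count of units by over 1.5 times.

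Leaving out 1 library at a time gave ranges of -0.19 to 0.29 for hnRNPA1 minus hnRNPI, 0.71 to 1.19 for hnRNPc minus hnRNPI and 0.50 to 0.86 for PAGE omitted. Median width ranged from -7.25 to 1.00 nt for PAGE omitted and from -13.4 nt (-13.375) to -5.13 nt (-5.125) for no UV with PAGE, and peaks for each cluster against the rest from -0.0073 to 0.035. Units lower with hnRNPA1 numbered 4 to 10, higher and lower with hnRNPc 1 to 2 and 3 to 6, higher with PAGE omitted 0 to 1, and higher without UV with PAGE 6 to 18. In the fit to libraries without UV they were 1 to 3 higher and 2 to 6 lower for hnRNPA1, and 0 to 1 higher for hnRNPI. Without hnRNPc with PAGE replicate 2 neither width comparison with PAGE could be run.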
